A study of Mus musculus with 30 samples.

Results

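The genes described here are 10 that make, conjugate, move and regulate bile acids in mouse liver: Cyp7a1, Cyp8b1, Cyp7b1, Cyp27a1, Slc27a5, Baat, Abcb11, Slc10a1, Nr1h4 and Nr0b2. They were taken by symbol from a table of raw read counts, where each matched 1 gene, so they are 10 of 48440 genes. All 10 passed a filter on low counts that left 16304 genes for testing. The livers came from wild-type female C57BL/6J mice aged 8 weeks when an osmotic pump was implanted, and 30 mRNA libraries fell into 6 groups of 5. CDDP+ACBP mice had a pump with ACBP/DBI, the acyl-CoA binding protein also called diazepam binding inhibitor, at 2.5 mg/mL and were made anorexic with CDDP, read here as cisplatin. CDDP mice had cisplatin and a pump with PBS. CRS+ACBP mice had the ACBP/DBI pump and CRS, which the labels give by its letters alone and which is read here as restraint stress, and CRS mice had CRS and a PBS pump. ACBP mice had only the ACBP/DBI pump, and PBS mice, the controls, only the PBS pump. CRS was started 48 h and CDDP 72 h after the pump. The groups set against CDDP or CRS were not given less food, so either treatment cannot be told apart from eating less, and neither the hour of collection nor the last meal is known here. The labels do not say that each library is a separate animal, so p-values measure the spread between these libraries.

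Bile acids are made from cholesterol in hepatocytes. In the classical pathway CYP7A1 catalyses the first and rate-limiting step and CYP8B1 directs the product towards cholic acid, while CYP27A1 and CYP7B1 serve the alternative pathway that starts on the side chain. SLC27A5 activates the acids and BAAT joins them to taurine or glycine, ABCB11 (the bile salt export pump) secretes them into bile, and SLC10A1 (NTCP) takes them back from blood. Nr1h4 encodes FXR, the nuclear receptor that senses bile acids. It induces Abcb11 and Nr0b2, and Nr0b2 encodes SHP, a repressor of Cyp7a1 and Cyp8b1. These genes are known to follow the clock and the meal as well.

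Promoter windows are shown for Cyp8b1, Abcb11 and Nr0b2, because the levels of these genes parted most between the livers of mice given CDDP. Each is the 250 bases before the RefSeq gene start on build GRCm38.p6, written 5′ to 3′ on the gene's strand with motif matches in capitals. Windows were at hand for 6 of the 10 genes.
Cyp8b1: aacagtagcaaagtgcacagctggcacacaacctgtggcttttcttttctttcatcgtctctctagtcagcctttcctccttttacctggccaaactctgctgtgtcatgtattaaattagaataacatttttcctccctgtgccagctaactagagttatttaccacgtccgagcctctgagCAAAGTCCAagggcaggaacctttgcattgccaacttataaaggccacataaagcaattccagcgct
Abcb11: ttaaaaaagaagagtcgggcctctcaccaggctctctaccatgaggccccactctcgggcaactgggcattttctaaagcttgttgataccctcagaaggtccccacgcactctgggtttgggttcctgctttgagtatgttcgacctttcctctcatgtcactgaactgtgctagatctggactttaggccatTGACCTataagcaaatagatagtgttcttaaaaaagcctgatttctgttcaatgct
Nr0b2: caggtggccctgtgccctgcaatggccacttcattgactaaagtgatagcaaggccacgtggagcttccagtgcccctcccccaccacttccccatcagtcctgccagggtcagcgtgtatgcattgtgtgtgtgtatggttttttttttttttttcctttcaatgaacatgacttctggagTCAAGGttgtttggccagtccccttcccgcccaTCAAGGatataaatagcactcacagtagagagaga
The Cyp8b1 window is chr9:121916306-121916555 on the minus strand, and its capitals are CAAAGTCCA, a motif of HNF4A, a factor that drives hepatocyte genes. That motif was found, on either strand, in 0.387% of 32536 promoter windows. The Abcb11 window is chr2:69342617-69342866 on the minus strand, and its capitals are the half-site of many nuclear receptors, AGGTCA, read on the other strand as TGACCT, which 14% of windows hold. The Nr0b2 window is chr4:133553126-133553375 on the plus strand, and its capitals are 2 copies of TCAAGG, the core of sites of NR5A2 (LRH-1), which 12.4% of windows hold. The longer inverted repeat AGGTCANTGACCT, the form usually given for FXR with its partner RXR, lay in 2 windows of all and in none of the 6. Only exact matches were sought. In the Abcb11 window the letters just before TGACCT are aggccat, which depart from that repeat only by c in place of T. The motifs were searched on both strands, their matches in these windows do not overlap, and a match describes letters and not binding.

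On build mm10, with GENCODE vM21, all 10 are protein-coding. Cyp8b1 is a single exon at chr9:121914356-121916305, Cyp7a1 lies at chr4:6265612-6275633, Cyp7b1 at chr3:18071950-18243338 and Cyp27a1 at chr1:74713574-74737892. Slc27a5 lies at chr7:12988346-12998192 and Baat at chr4:49489422-49506557. Abcb11 lies at chr2:69238282-69342616, Slc10a1 at chr12:80953183-80968705, Nr1h4 at chr10:89454234-89533585 and Nr0b2 at chr4:133553376-133556536. The annotated antisense gene Gm13613 overlaps Abcb11 on the opposite strand and collected 11045 counts over the 30 libraries. How strand was handled in counting is not given in the sources used here; reads of these 2 genes may not have been told apart.

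Between 13957380 and 18479134 reads per library were counted on genes, and levels are given as CPM, counts scaled to a fixed library total, after TMM scaling. The 8 hepatocyte markers summed to 43901 CPM or more in every library. Cdkn1a, a p53 target that cisplatin is known to induce, ranged from 154 to 456 CPM in CDDP and measured 63.2, 37.0, 52.8, 5.12 and 16.4 CPM in the CDDP+ACBP libraries, against at most 12.1 CPM in the 20 libraries of mice not given CDDP. The fourth CDDP+ACBP library therefore lay within the range of livers without cisplatin. Mitochondrial transcripts took 2.74% to 3.81% of reads in CDDP, against 9.24% to 13.5% in PBS, and 5.43% to 12.6% in CDDP+ACBP. Of the 30 libraries, 7 stood out by skeletal muscle transcripts, up to 0.950% of reads, and 1 by brain transcripts. They had a mean log2 marker level above 5 for muscle or above 3 for brain. The muscle limit cuts a continuous range: CRS 4 stood at 5.17. CDDP 5 (4.79), PBS 3 (4.75) and CRS+ACBP 2 (4.74) lay just below and were not counted among them. In bulk tissue, fewer cells of a type and less RNA per cell cannot be told apart.

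Per kilobase of merged exons, Slc27a5 was the most abundant of the 10 in PBS livers at a mean of 244 CPM per kb, followed by Cyp27a1 at 213 CPM per kb. Abcb11 (107 CPM per kb), Slc10a1 (99.6), Baat (97.6) and Nr1h4 (86.5) formed a second tier with overlapping libraries. Nr0b2 had 32.1 CPM per kb, Cyp7a1 28.9 and Cyp8b1 21.8, again with overlapping libraries, and Cyp7b1 was lowest at 3.52 CPM per kb. The place of Cyp8b1 in this order differed most between groups. It ranked ninth in PBS and was the fourth in both CRS groups, with 117 CPM per kb in CRS+ACBP and 101 CPM per kb in CRS.

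**Figure D1:**
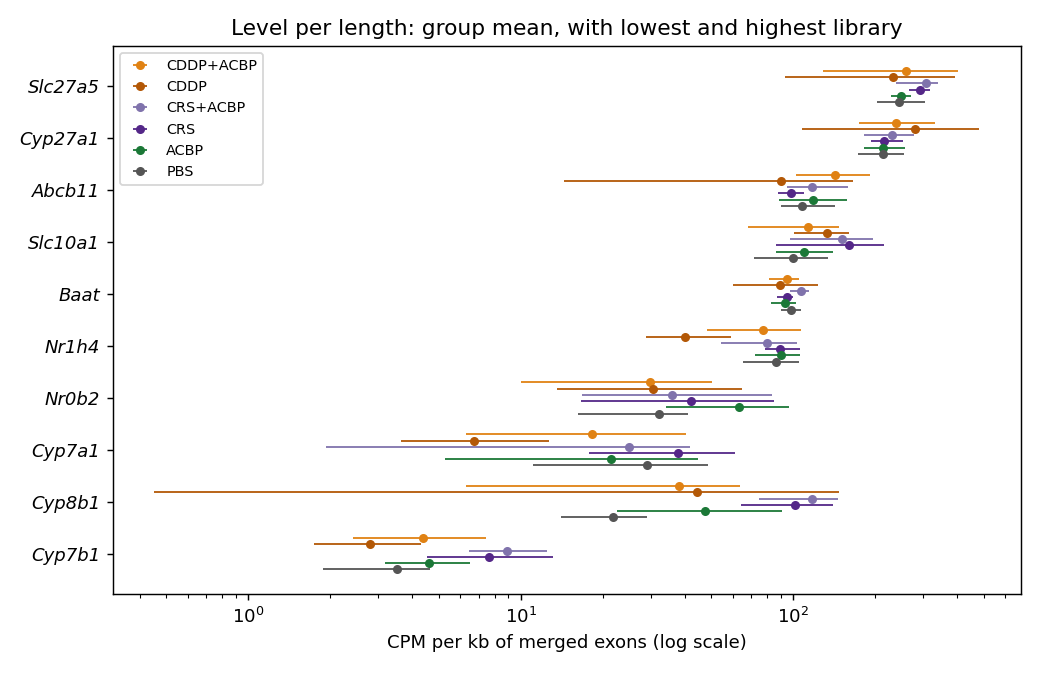
Level of the 10 bile acid genes in CPM per kb of merged exons (log axis), as the group mean (point) with a line from the lowest to the highest of 5 libraries. Cyp8b1 has the widest line, in CDDP, and lies near 101 to 117 CPM per kb in the CRS groups, against 21.8 in PBS.

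In CDDP against PBS, transcripts of the bile acid receptor FXR and of the rate-limiting enzyme CYP7A1 fell, and the other 8 genes did not pass the test. The called genes were 2 of 10, both lower, in a comparison where 41.4% of all genes tested were called, 18.3% lower and 23.1% higher. The share among the 10 is thus not above that of the transcriptome. Tests were edgeR quasi-likelihood F tests with Benjamini-Hochberg adjustment over all 16304 genes, called at an adjusted p under 0.05, and each log2 fold change has an approximate standard error.

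Nr1h4 measured 136, 86.8, 103, 66.0 and 67.7 CPM in the CDDP livers, against 150, 179, 204, 220 and 242 CPM in the PBS livers. The groups did not overlap, which held for 24.6% of all genes. The difference was −1.12 ± 0.22 (log2 fold change ± SE), 2.17-fold lower in CDDP, with an edgeR adjusted p of 0.000225.

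Cyp7a1 measured 53.1, 15.2, 33.9, 16.8 and 21.2 CPM in CDDP, against 46.1, 113, 177, 203 and 65.3 CPM in PBS. Of the CDDP livers, 4 lay below every PBS liver, and only the first exceeded the lowest PBS liver. The difference was −2.11 ± 0.63 on the log2 scale, 4.31-fold lower in CDDP (edgeR adjusted p = 0.0088). Both calls held with DESeq2, with limma voom with sample quality weights (called limma voom below) and without each library in turn.

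Cyp8b1 was the most uneven of the 10 genes in CDDP: its libraries measured 6.14, 132, 0.878, 8.52 and 286 CPM, against 29.5, 56.5, 54.9, 44.4 and 27.3 CPM in PBS. So 3 CDDP livers lay below every PBS liver and 2 lay above every PBS liver. The highest CDDP library exceeded the lowest by 325 times, against 2.07 times in PBS. The difference of 1.02 ± 0.78 on the log2 scale did not pass the test (edgeR adjusted p = 0.298; approximate 95% interval −0.58 to 2.63). It has no stable sign: it was −0.20 without the fifth CDDP library and −3.49 with limma voom (adjusted p = 0.000307).

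The 2 CDDP livers high in Cyp8b1 also stood apart in Abcb11, which measured 704, 74.3, 854, 511 and 171 CPM in CDDP, against 731, 470, 461, 475 and 622 CPM in PBS. The 2 livers highest in Cyp8b1, the second and the fifth, were the 2 lowest in the export pump, and the liver with the least Cyp8b1, the third, had the most Abcb11. In PBS too, the 2 livers lowest in Cyp8b1, the first and the fifth, were the 2 highest in Abcb11. In CRS+ACBP, by contrast, the same liver was the highest in both genes. Nr0b2 measured 73.4, 15.4, 35.0, 28.4 and 21.3 CPM in CDDP, against 38.5, 39.3, 46.3, 18.3 and 39.3 CPM in PBS, and its 2 lowest values were in those 2 CDDP livers too, but without a gap to the next, and the fifth lay within the PBS range. This grouping of the CDDP livers was seen after the values were known and is a description of 5 libraries, with no test. The fifth CDDP library also had a TMM factor of 0.70, which raises its CPM, whereas those of the other CDDP libraries were 0.97 to 1.11; the part of this in the pattern was not tested.

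**Figure D2:**
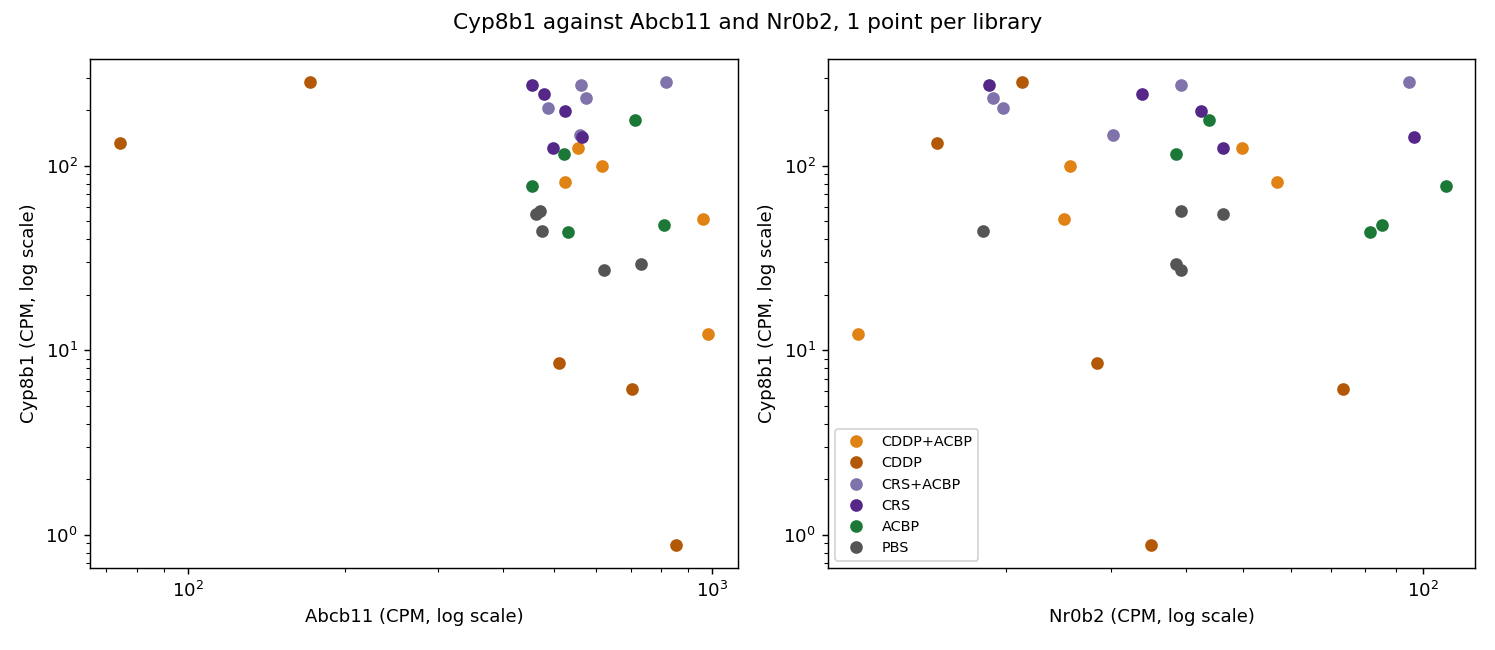
Cyp8b1 level against Abcb11 (left) and Nr0b2 (right) in CPM on log axes, 1 point per library, coloured by group. The CDDP livers split into 2 with Cyp8b1 at 132 and 286 CPM and Abcb11 at 74.3 and 171 CPM, and 3 with Cyp8b1 at 0.878 to 8.52 CPM and Abcb11 at 511 to 854 CPM.

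Neither Abcb11 (−0.25 ± 0.36, edgeR adjusted p = 0.602) nor Nr0b2 (−0.07 ± 0.47, adjusted p = 0.921) passed the test between CDDP and PBS. Slc10a1, the uptake carrier, measured 352, 339, 307, 241 and 220 CPM in CDDP, against 188, 224, 295, 230 and 158 CPM in PBS (0.42 ± 0.24, edgeR adjusted p = 0.169). Cyp7b1 averaged 6.05 ± 2.23 CPM in CDDP and 7.62 ± 2.53 CPM in PBS (SD, n = 5 each), with overlapping libraries.

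The conjugating enzymes and Cyp27a1 did not pass the test and had a wider SD in CDDP. Slc27a5 averaged 565 ± 271 CPM in CDDP and 594 ± 99.1 CPM in PBS, and Baat 174 ± 46.6 CPM in CDDP and 189 ± 11.7 CPM in PBS (SD, n = 5 each). Cyp27a1 measured 573, 233, 655, 536 and 1045 CPM in CDDP, against 488, 487, 553, 375 and 416 CPM in PBS. In CPM, the second CDDP library was the lowest and the fifth the highest of the group in all 3 genes, so these 2 livers do not resemble each other there. The TMM factor of 0.70 raises the CPM of the fifth library. Its raw Baat count was 2968 from 17700705 reads on genes, against 3366 from 17185497 in the third. Its raw Slc27a5 count was 11839, against 11746 from 16969974 reads in the first. Without the second CDDP library, Cyp27a1 passed the test (0.60, edgeR adjusted p = 0.0153). Over the 6 groups, means ran from 174 to 206 CPM for Baat, from 565 to 750.3 CPM for Slc27a5 and from 462 to 608 CPM for Cyp27a1, and none of these 3 passed the edgeR test in any comparison with all libraries in the fit.

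**Figure D3:**
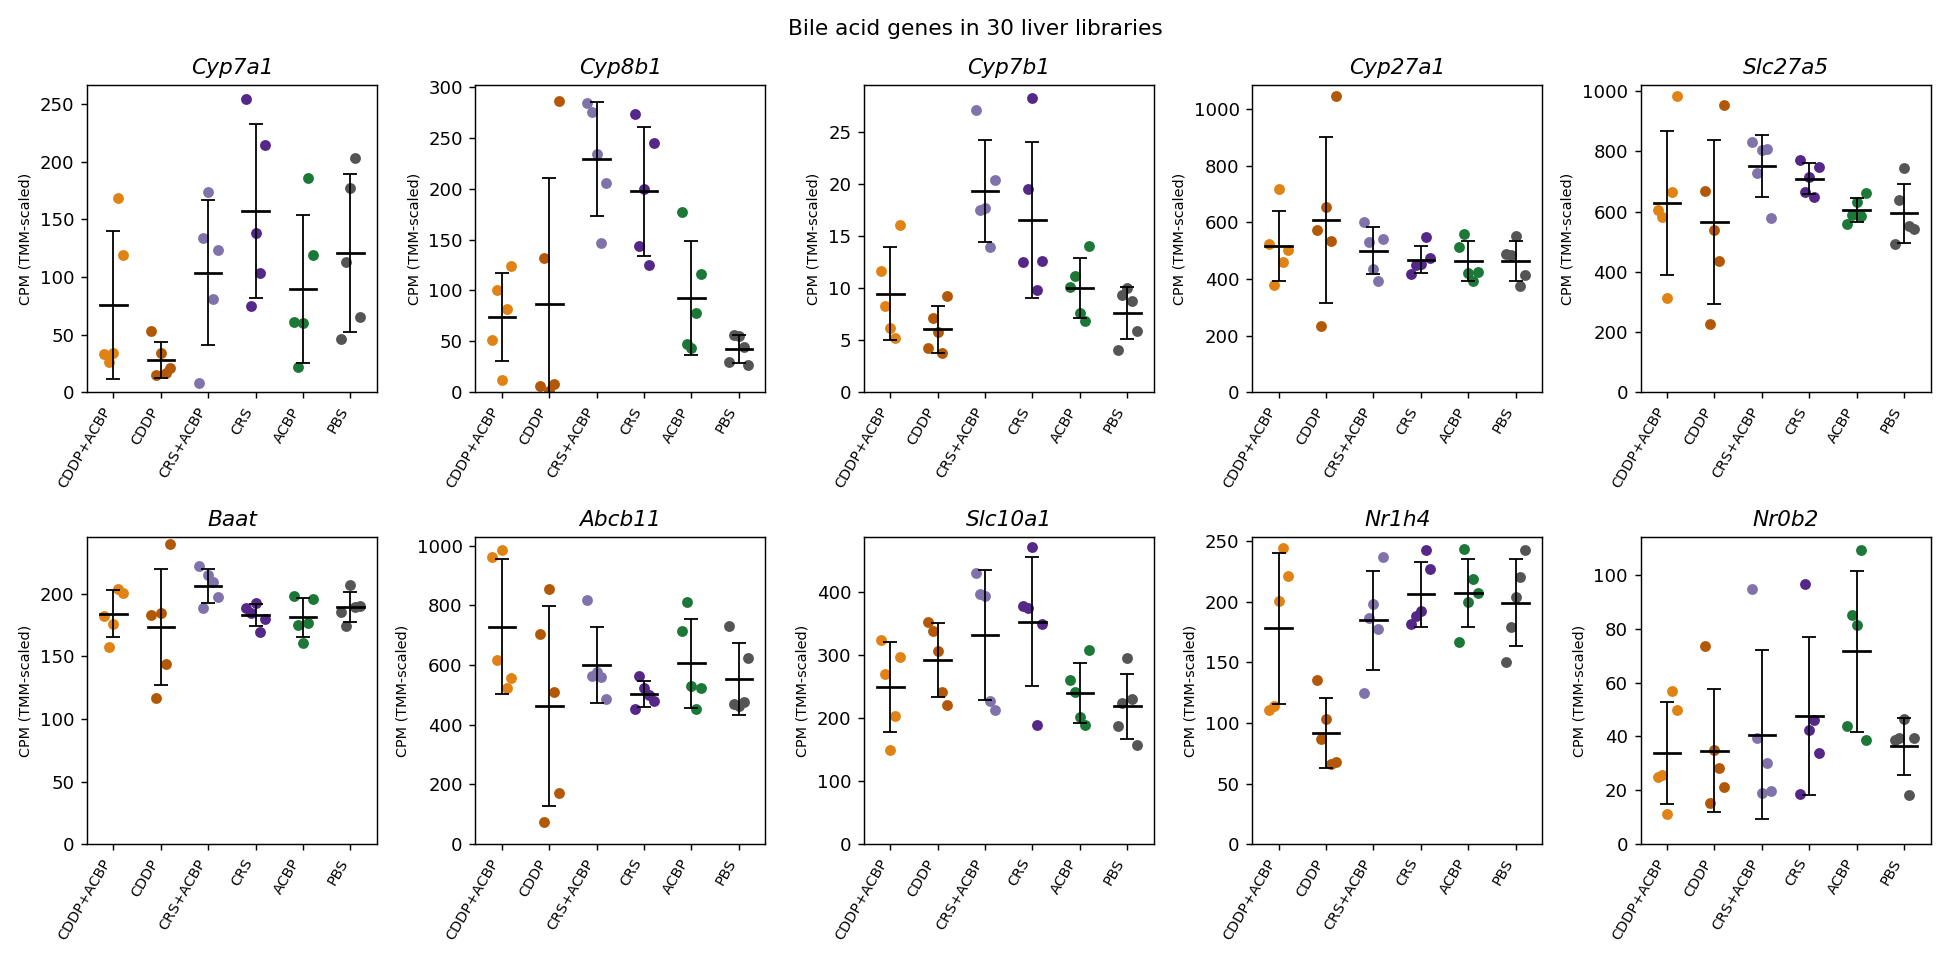
CPM of each bile acid gene in 30 liver libraries (points), with the group mean (bar) and SD (whiskers), for 6 groups of 5 from CDDP+ACBP on the left to PBS on the right. Nr1h4 in CDDP, 66.0 to 136 CPM, lies below all PBS livers, and Cyp8b1 in CRS, 125 to 273 CPM, lies above all PBS livers.

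Other genes of the pathway were called in both directions in CDDP against PBS, at shares that stand beside 23.1% higher and 18.3% lower over all genes and are not a result about the pathway. Of 14 other synthesis and modification genes tested, 3 rose and 3 fell, and the median log2 fold change was −0.08, against 0.02 over all genes. Cyp39a1, an oxysterol hydroxylase, averaged 138 ± 38.3 CPM in CDDP and 20.4 ± 5.50 CPM in PBS (log2 2.76 ± 0.34, edgeR adjusted p = 8.2e-07). Acox2, a peroxisomal oxidase that shortens the side chain, averaged 201 ± 81.4 CPM in CDDP and 53.2 ± 11.1 CPM in PBS (SD, n = 5 each), and it rose by 1.92 ± 0.30 on the log2 scale. Cyp2c70, which makes muricholic acids in mice, rose by 1.36 ± 0.42, and its CDDP libraries ran from 40.4 to 930 CPM. Cyp46a1, the cholesterol hydroxylase best known from neurons, fell to 1.58 ± 0.63 CPM in CDDP, against 15.6 ± 3.64 CPM in PBS.

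Among 13 other transporters tested, 4 rose and 3 fell in CDDP (median 0.01). Among those that rose were 2 basolateral exporters: Abcc4 averaged 16.8 ± 7.34 CPM in CDDP and 3.27 ± 1.08 CPM in PBS (log2 2.35 ± 0.32, edgeR adjusted p = 2.5e-06), and Slc51b, a subunit of OSTα-OSTβ, averaged 5.93 ± 4.28 CPM in CDDP and 1.50 ± 0.71 CPM in PBS (SD, n = 5 each). Its partner Slc51a was at 0 in all 5 libraries of both groups. Slc51b is also made in the intestine, and of 3 intestine markers tested 2 rose with it, Apoa4 and Fabp2, described with the cell markers; the part of this in the rise of Slc51b was not tested. Of the organic anion uptake carriers, Slco1b2 fell by 0.73 and Slco2b1 by 0.83 on the log2 scale.

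Among 12 other regulators tested, 4 rose and 3 fell (median 0.09). Nr1i3, the xenobiotic receptor CAR, averaged 442 ± 150 CPM in CDDP and 1448 ± 133 CPM in PBS and fell by 1.71 ± 0.27 on the log2 scale. Hnf4a rose by 0.72 ± 0.17, the coactivator Ppargc1a by 1.76 ± 0.34 and Nr5a2 by 0.42 ± 0.12. Of 5 detoxification genes 1 rose and 1 fell (median 0.90). Sult2a8, a sulfotransferase for bile acids in mice, averaged 19.1 ± 6.78 CPM in CDDP and 268 ± 38.9 CPM in PBS (log2 −3.81 ± 0.32). Cyp2b10, which CAR is known to induce, rose by 1.41 ± 0.52 (edgeR adjusted p = 0.0289). Sult2a1, a relative of Sult2a8, was not called and averaged 490 ± 136 CPM in CDDP and 257 ± 50.5 CPM in PBS (SD, n = 5 each).

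Cell markers were called too in this comparison, where 41.4% of all genes were called, 23.1% higher and 18.3% lower. The periportal and skeletal muscle lists had shares of calls that were not above these. Of 8 pericentral hepatocyte markers 0 rose and 6 fell in CDDP (median −0.93, against 0.02 over all genes), and their sum ranged from 3212 to 6235 CPM in CDDP and from 4030 to 6868 CPM in PBS. Of 8 periportal markers 1 rose and 1 fell, and their sum ran from 5066 to 14393 CPM in CDDP and from 7282 to 9496 CPM in PBS. Of 8 general hepatocyte markers 4 rose and 2 fell, with sums of 75275 to 142953 CPM in CDDP and 72883 to 99679 CPM in PBS. Of 8 cholangiocyte markers tested 4 rose and 2 fell, with sums of 52.5 to 155 CPM in CDDP and 66.7 to 108 CPM in PBS. Of 8 Kupffer cell markers 1 rose and 5 fell, with sums of 151 to 232 CPM in CDDP and 268 to 325 CPM in PBS, and of 8 sinusoidal endothelium markers 1 rose and 5 fell, with sums of 179 to 286 CPM in CDDP and 301 to 385 CPM in PBS. Of 5 B cell markers all 5 fell, with sums of 1.05 to 6.09 CPM in CDDP and 14.8 to 24.8 CPM in PBS, and of 6 T cell markers 4 fell, with sums of 0.446 to 2.96 CPM in CDDP and 3.95 to 6.94 CPM in PBS. Of 12 skeletal muscle markers 1 fell, and of 6 brain markers tested 2 fell.

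The 6 intestine markers summed to 481 to 38258 CPM in CDDP, against 182 to 299.7 CPM in PBS, and 2 of the 3 tested rose. Nearly all of the sum was Apoa4, an apolipoprotein that mouse liver makes as well, which measured 443, 37985, 2819, 7808 and 10309 CPM in CDDP, against 149 to 269 CPM in PBS (log2 5.84 ± 0.68, edgeR adjusted p = 4.3e-07). The second CDDP library was thus far the highest. Fabp2, a fatty acid binding protein of enterocytes, was 273 CPM in that library and 36.3 to 60.6 CPM in the other 4, against 19.4 to 37.9 CPM in PBS. The other 4 markers were at or near 0: in CDDP and PBS alike Fgf15, Lct and Muc2 stayed at or below 0.5001 CPM and Vil1 at or below 2.13 CPM. Cyp7a1 and Nr1h4 were also called without the second CDDP library. The part of the cell marker shifts and of the low mitochondrial share in the fall of Cyp7a1 and Nr1h4 was not tested.

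Under the ACBP/DBI pump, CDDP+ACBP against ACBP called none of the 10 genes with edgeR, where 0.129% of all genes were called. At an unadjusted p under 0.05 stood 4.85% of all genes and 1 member, Nr0b2, and DESeq2 and limma voom called 0 each. Nr0b2 measured 25.01, 25.7, 11.3, 56.9 and 49.8 CPM in CDDP+ACBP, against 43.8, 85.2, 81.3, 109 and 38.5 CPM in ACBP (−1.09 ± 0.47, edgeR adjusted p = 0.889). Nr1h4 measured 111, 114, 200, 245 and 221 CPM in CDDP+ACBP, against a range of 167 to 244 CPM in ACBP (−0.22 ± 0.22). Cyp7a1 measured 33.0, 26.1, 33.9, 168 and 119 CPM in CDDP+ACBP, against 60.8, 21.9, 60.2, 186 and 119 CPM in ACBP (−0.23 ± 0.61).

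Set directly against CDDP, CDDP+ACBP had more Nr1h4 transcript: 178 ± 62.1 CPM, against 91.9 ± 28.9 CPM in CDDP (SD, n = 5 each). This was the 1 member called, where 33.8% of all genes were called, 14.9% higher (0.95 ± 0.22, edgeR adjusted p = 0.00148). The call was lost with limma voom (0.53, adjusted p = 0.0779). The first and second CDDP+ACBP livers, at 111 and 114 CPM, lay within the CDDP range of 66.0 to 136 CPM, and the other 3 lay above it. The 2 highest, the fourth (245 CPM) and the fifth (221 CPM), had the lowest Cdkn1a of the group, 5.12 and 16.4 CPM. The third had Nr1h4 at 200 CPM with Cdkn1a at 52.8 CPM. This order was seen after the values were known, and its part in the higher Nr1h4 was not tested. The test of whether CDDP acted differently under the 2 pumps gave 0.90 ± 0.31 for Nr1h4 (edgeR adjusted p = 0.0385), 1 of 10 members where 19.7% of all genes were called, 8.38% higher. That result was lost on leaving out any 1 of 12 of the 20 libraries, namely CDDP+ACBP 3, 4 or 5, CDDP 2, 4 or 5, ACBP 1, 3 or 5 and PBS 3, 4 or 5 (adjusted p between 0.0105 and 0.0914 over all 20), with limma voom (0.53, adjusted p = 0.199) and in a fit of those 4 groups alone (adjusted p = 0.0616). These comparisons share the CDDP libraries with CDDP against PBS, so they are not separate evidence.

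Cyp7a1 was 1.44 ± 0.62 higher on the log2 scale in CDDP+ACBP than in CDDP and did not pass the test (edgeR adjusted p = 0.0722; approximate 95% interval 0.16 to 2.72). It passed without the first CDDP library (adjusted p = 0.0358), without the second CDDP+ACBP library (0.0458) and without the 8 libraries rich in muscle or brain transcripts (0.0493). The CDDP+ACBP livers were uneven: the first 3, with Cdkn1a at 37.0 to 63.2 CPM, had Cyp7a1 at 26.1 to 33.9 CPM, inside the CDDP range, and the other 2, with Cdkn1a at 5.12 and 16.4 CPM, had Cyp7a1 at 168 and 119 CPM. ACBP livers, without cisplatin, ran from 21.9 to 186 CPM in Cyp7a1, a range that holds every CDDP+ACBP value. This split was seen after the values were known and was not tested. The interaction of Cyp7a1 was 1.87 ± 0.86 (edgeR adjusted p = 0.124).

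Cyp8b1 in CDDP+ACBP measured 51.1, 99.97, 12.3, 82.1 and 124 CPM, so the highest library exceeded the lowest by 10.1 times, against 325 times in CDDP. The third of these livers, with the least Cyp8b1, had the most Abcb11 of its group at 985 CPM and the least Nr0b2 at 11.3 CPM. Abcb11 measured 964, 616, 985, 524 and 556 CPM in CDDP+ACBP, against 704, 74.3, 854, 511 and 171 CPM in CDDP (0.65 ± 0.37, edgeR adjusted p = 0.168). Without the third CDDP library Abcb11 passed (0.99, edgeR adjusted p = 0.038). The difference in Cyp8b1 between CDDP+ACBP and CDDP was −0.23 ± 0.77 and turned with the setting, to 1.001 without the fifth CDDP library and 4.25 with limma voom (adjusted p = 0.00018). Slc10a1, Cyp27a1, Cyp7b1, Slc27a5 and Baat did not pass the test between these groups.

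In the wider pathway, CDDP+ACBP against CDDP had 3 synthesis genes higher and 3 lower, 2 transporters higher and 2 lower, 3 regulators higher and 2 lower, and 1 detoxification gene higher. Sult2a8 averaged 235 ± 125 CPM in CDDP+ACBP and 19.1 ± 6.78 CPM in CDDP (log2 3.62 ± 0.31), and Cyp39a1 averaged 21.5 ± 10.3 CPM in CDDP+ACBP and 138 ± 38.3 CPM in CDDP (−2.68 ± 0.34; SD, n = 5 each). Abcc4 fell by 2.14 ± 0.31 and Nr1i3 rose by 1.35 ± 0.26 on the log2 scale, with edgeR adjusted p of 1.5e-05 and 0.000349. Fgfr4, the receptor of the intestinal hormone FGF15 that represses Cyp7a1, averaged 78.3 ± 39.3 CPM in CDDP+ACBP and 40.3 ± 10.4 CPM in CDDP and rose by 0.96 ± 0.24. These counts stand beside 33.8% of all genes called, 14.9% higher, and are not a result about the pathway.

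Cell markers were also called between these groups, where 33.8% of all genes were called, 14.9% higher and 18.8% lower. Counting calls in either direction, the Kupffer cell and brain lists had shares near 33.8%, and the periportal list a lower one. Of 8 pericentral markers 3 rose and 0 fell in CDDP+ACBP, with sums of 2810 to 7757 CPM in CDDP+ACBP and 3212 to 6235 CPM in CDDP. All 5 B cell markers rose (median 3.48, against −0.01 over all genes), with sums of 13.4 to 39.2 CPM in CDDP+ACBP and 1.05 to 6.09 CPM in CDDP, and 3 of 6 T cell markers rose, with sums of 3.21 to 6.20 CPM in CDDP+ACBP and 0.446 to 2.96 CPM in CDDP. Of 8 sinusoidal endothelium markers 4 rose and 1 fell, with sums of 269.7 to 411 CPM in CDDP+ACBP and 179 to 286 CPM in CDDP. Both Apoa4 and Fabp2 fell, and the 6 intestine markers summed to 160 to 474 CPM in CDDP+ACBP, against 481 to 38258 CPM in CDDP. Of 8 Kupffer cell markers 2 rose and 1 fell, of 8 general hepatocyte markers 2 rose and 3 fell, of 8 cholangiocyte markers tested 2 rose and 2 fell, of 8 periportal markers 1 fell, and of 6 brain markers tested 2 rose. The part of these shifts in the higher Nr1h4 was not tested.

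**Figure D4:**
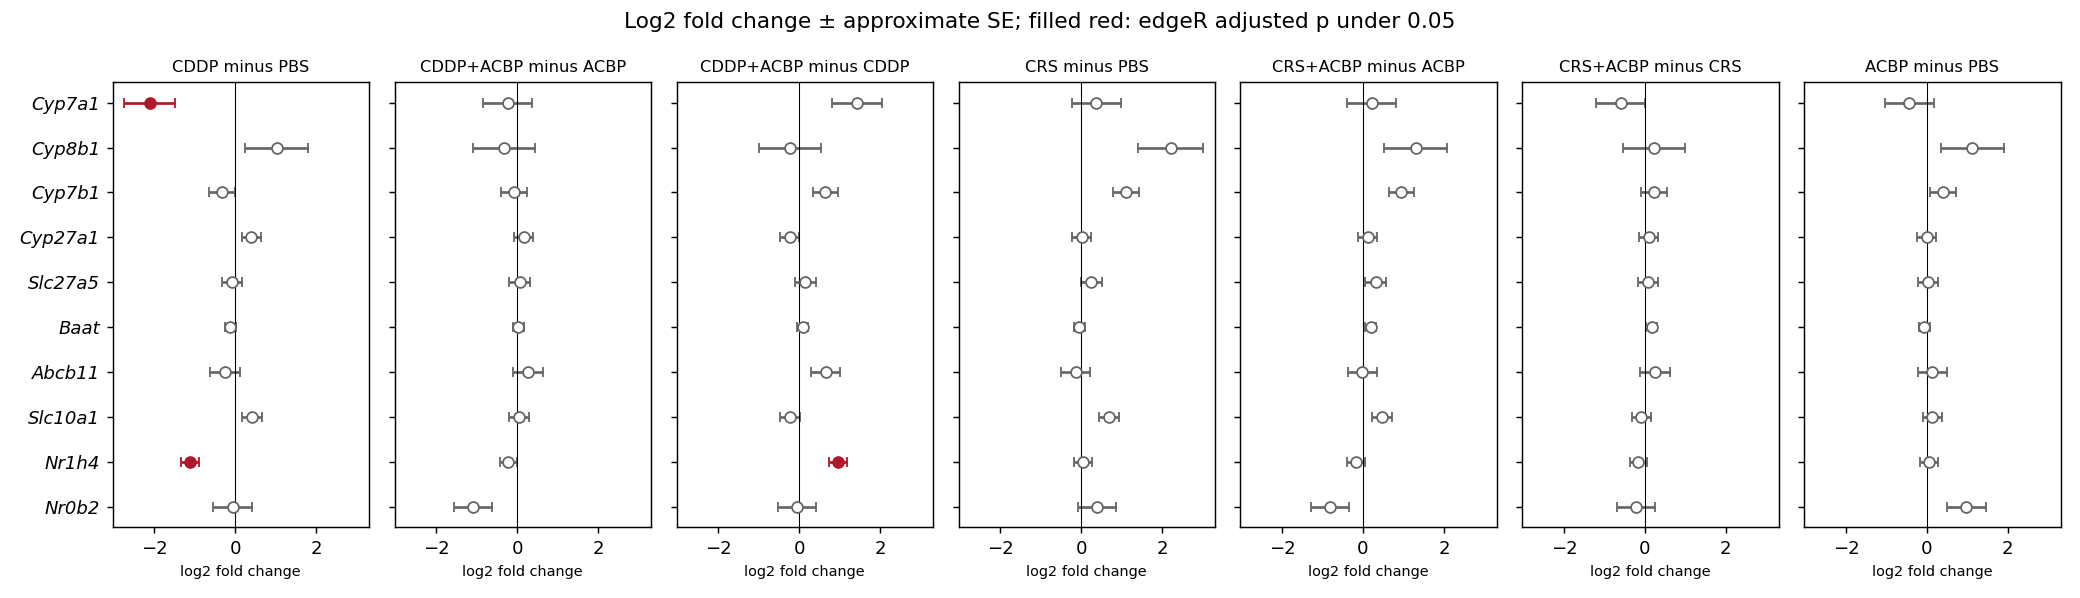
Log2 fold change with approximate SE of each bile acid gene in 7 comparisons, the first-named group over the second, with filled red points at an edgeR adjusted p under 0.05. Cyp7a1 and Nr1h4 are called in CDDP minus PBS (−2.11 and −1.12), Nr1h4 in CDDP+ACBP minus CDDP (0.95), and no gene in the other 5.

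In CRS against PBS the largest difference was in Cyp8b1, which measured 273, 144, 199, 125 and 245 CPM in CRS, against 29.5, 56.5, 54.9, 44.4 and 27.3 CPM in PBS. Every CRS liver lay above every PBS liver, as happened, in either direction, for 4.31% of all genes. The difference was 2.21 ± 0.80 on the log2 scale, 4.64-fold, and did not pass the test in the fit of all 30 libraries (edgeR adjusted p = 0.379), whose spread for this gene includes the CDDP livers. It did pass in a fit of the CRS and PBS libraries alone (2.195, adjusted p = 0.00178) and with limma voom (2.29, adjusted p = 0.000898), and not with DESeq2 (adjusted p = 0.238).

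Cyp7b1, of the alternative pathway, measured 12.5, 19.6, 28.3, 9.78 and 12.6 CPM in CRS, against 4.07, 9.31, 10.02, 8.81 and 5.88 CPM in PBS. The groups overlapped by 1 CRS liver (1.12 ± 0.32, edgeR adjusted p = 0.232). Slc10a1 measured 378, 375, 472, 190 and 350 CPM in CRS, against 188, 224, 295, 230 and 158 CPM in PBS, and again 4 CRS livers lay above every PBS liver (0.69 ± 0.24, edgeR adjusted p = 0.364). With edgeR none of the 10 was called, where 0.141% of all genes were; 3 had an unadjusted p under 0.05, namely Cyp8b1, Cyp7b1 and Slc10a1, as did 8.97% of all genes. These are the 3 that limma voom called among 930 genes in all, while DESeq2 called none of the 10 and 82 genes in all. Cyp7a1 averaged 157 ± 75.3 CPM in CRS and 121 ± 68.1 CPM in PBS, and Nr1h4 206 ± 26.9 CPM in CRS and 199 ± 35.7 CPM in PBS (SD, n = 5 each), with overlapping libraries in both.

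Under the ACBP/DBI pump the CRS livers were again high in Cyp8b1 and Cyp7b1, without passing the test. Cyp8b1 measured 284, 275, 234, 146 and 206 CPM in CRS+ACBP, against 177, 47.8, 43.8, 77.6 and 116 CPM in ACBP, so 1 CRS+ACBP liver lay below the highest ACBP liver (1.31 ± 0.78, edgeR adjusted p = 0.727). Cyp7b1 measured 27.1, 17.5, 17.7, 13.99 and 20.4 CPM in CRS+ACBP, against 10.2, 11.2, 7.65, 6.88 and 14.1 CPM in ACBP (0.95 ± 0.32, edgeR adjusted p = 0.538). Slc10a1 averaged 333 ± 103 CPM in CRS+ACBP and 240 ± 47.6 CPM in ACBP (SD, n = 5 each). With edgeR 0 of 10 members and 0% of all genes were called; 1 member, Cyp7b1, had an unadjusted p under 0.05, as did 7.32% of all genes, and DESeq2 and limma voom called 0 members.

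An average of the CRS effect over both pumps was added after these values were seen. It called Cyp7b1 higher (1.04 ± 0.22, edgeR adjusted p = 0.0253), 1 of 10 members, where 0.687% of all genes were called, 0.417% higher. The call was lost without the 8 libraries rich in muscle or brain transcripts (adjusted p = 0.0847) and on leaving out any 1 of 7 libraries, namely CRS+ACBP 1, CRS 2 or 3, ACBP 3 or 4 and PBS 1 or 5 (adjusted p up to 0.0729), while the fold change stayed between 0.90 and 1.11 without single libraries and between 0.97 and 1.235 over the other settings. Cyp8b1 (1.76 ± 0.56, edgeR adjusted p = 0.13) and Slc10a1 (0.58 ± 0.17, adjusted p = 0.11) did not pass. Limma voom called both (adjusted p = 0.000175 and 0.00468), as did a fit of these 4 groups alone, and DESeq2 called Slc10a1 (adjusted p = 0.044). Over all genes, limma voom called 2027 in this comparison, that fit of 4 groups 919 and DESeq2 370, against 112 in the main fit. Of the wider pathway, Slco1a1, an organic anion carrier that also takes up bile acids, rose in CRS against PBS. It averaged 65.1 ± 33.4 CPM in CRS and 11.8 ± 5.09 CPM in PBS (2.46 ± 0.42, edgeR adjusted p = 0.00749). Under the ACBP/DBI pump it averaged 117 ± 37.0 CPM in CRS+ACBP and 28.1 ± 16.2 CPM in ACBP (SD, n = 5 each). There it did not pass the test, and edgeR called 0% of all genes. It was the 1 gene called among 44 other pathway genes tested in CRS against PBS, and 0 of the 8 pericentral, 8 periportal, 8 general hepatocyte and 8 cholangiocyte markers tested were called there.

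ACBP/DBI alone called none of the 10 genes against PBS with edgeR, where 0% of all genes were called; DESeq2 and limma voom also called 0 members. At an unadjusted p under 0.05 stood 4.38% of all genes and 1 member, Nr0b2. Nr0b2 measured 43.8, 85.2, 81.3, 109 and 38.5 CPM in ACBP, against 38.5, 39.3, 46.3, 18.3 and 39.3 CPM in PBS (0.98 ± 0.47). ACBP livers were the highest of the 6 groups in mean Nr0b2, with 3 of 5 above every PBS liver. Cyp8b1 averaged 92.5 ± 55.6 CPM in ACBP and 42.5 ± 13.8 CPM in PBS (1.12 ± 0.78), Cyp7a1 89.4 ± 63.9 CPM in ACBP and 121 ± 68.1 CPM in PBS, and Abcb11 606 ± 150 CPM in ACBP and 552 ± 120 CPM in PBS (SD, n = 5 each), all with overlapping libraries.

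CRS+ACBP against CRS called none of the 10 members and 0% of all genes with edgeR. At an unadjusted p under 0.05 there were 0 members and 2.87% of all genes, and DESeq2 and limma voom called 0 members. Cyp7a1 measured 8.02, 134, 173, 80.7 and 123 CPM in CRS+ACBP, against 254, 74.5, 138, 104 and 214 CPM in CRS (−0.60 ± 0.61; approximate 95% interval −1.85 to 0.66). The first CRS+ACBP liver, with the lowest Cyp7a1 of all 30, also had the highest Cyp8b1 (284 CPM), Abcb11 (817 CPM) and Nr0b2 (94.6 CPM) of its group. That liver was the highest of its group in Cyp27a1, Cyp7b1, Slc10a1, Slc27a5 and Baat too, and the lowest in Nr1h4 (124 CPM). This description was made after the values were known, with no test. The test of whether CRS acted differently under the 2 pumps called 0 of 10 members and 0% of all genes with edgeR, with 0 members and 2.38% of all genes at an unadjusted p under 0.05 and 0 members by DESeq2 or limma voom.

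The 2 anorexia treatments differed from each other in 3 members. In CDDP against CRS, Cyp7a1, Cyp7b1 and Nr1h4 were lower, 3 of 10 members where 34.6% of all genes were called, 15.1% lower. In all 3 the groups did not overlap, as in 19.2% of all genes. Cyp7a1 averaged 28.03 ± 15.8 CPM in CDDP and 157 ± 75.3 CPM in CRS (−2.48 ± 0.64, edgeR adjusted p = 0.00356). Cyp7b1 averaged 6.05 ± 2.23 CPM in CDDP and 16.5 ± 7.49 CPM in CRS (−1.46 ± 0.32, edgeR adjusted p = 0.0010). Nr1h4 averaged 91.9 ± 28.9 CPM in CDDP and 206 ± 26.9 CPM in CRS (−1.17 ± 0.22, edgeR adjusted p = 0.000201; SD, n = 5 each). Cyp8b1 did not pass the test (−1.19 ± 0.78, adjusted p = 0.242), and did so without the fifth CDDP library (−2.42, adjusted p = 0.021) and with limma voom (−5.78, adjusted p = 1.1e-06), which also called Slc27a5 (−0.46, adjusted p = 0.0425). The treatments were also started at different times after the pump, 72 h for CDDP and 48 h for CRS, and time and treatment cannot be told apart.

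For 6 of the members, the 3 genes nearest in pattern were sought among 10303 genes averaging at least 5 CPM, by the root mean square (RMS) difference between their 6 group means on the log2 scale, each centred on its own mean. Over these 6 points Cyp7a1, which itself had an RMS deviation of 0.78, lay nearest to Bmf (0.15), Gm7652 (0.17) and Tk1 (0.20). Cyp8b1, with an RMS deviation of 1.24, lay nearest to Ugt2b37 (0.22), Srd5a1 (0.36) and Meg3 (0.41), while Cyp7b1 (0.59) lay nearest to Adh6-ps1 (0.17), Arsa (0.22) and Gm15962 (0.22). Abcb11 (0.34) lay nearest to Leap2 (0.04), Lima1 (0.07) and 1700029I15Rik (0.07). Its mean log2 CPM was 8.37 in CDDP and 9.08 in PBS, whereas the log2 fold change between them was −0.25 with edgeR and 0.13 with limma voom. The neighbours of Abcb11 thus follow a direction without a stable sign. Slc10a1 (0.24) lay nearest to 1110034G24Rik (0.05), Snap47 (0.05) and Hgd (0.07), and Nr0b2 (0.40) to Clstn1 (0.19), Nckap1l (0.20) and Slc43a2 (0.21). The neighbours of Cyp8b1 rest on means of log values, which put it lower in CDDP than in PBS (4.19 and 5.35 log2 CPM), whereas its mean CPM was higher in CDDP (86.7 CPM, against 42.5 CPM in PBS), so they follow a direction with no stable sign. These are descriptions over 6 group means that share libraries and depth.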

How the data were processed

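The authors deposited raw read counts per gene, with no normalization, for 30 liver libraries. Per the labels, the mRNA libraries were strand-specific; per the submitters' processing notes, HISAT2 2.2.1, HTSeq 2.0.3 and build mm10 were used. For annotation release and strand setting: not given in the sources used here. A median of 38.0% of reads lay on genes, 43.4% on no feature and 11.0% were not unique; the 5 summary lines were left out. Counts were fitted with edgeR 4.0.16 in R 4.3.3 (filterByExpr, TMM, quasi-likelihood F test, 1 fit of 30 libraries, 24 residual degrees of freedom), with Benjamini-Hochberg adjustment over 16304 genes in each of 10 comparisons and 1 added. That fit gives a gene 1 spread for all groups. Standard errors are approximate, from the F statistic. No 2 libraries were copies (smallest chi-square per degree of freedom 21.1). The steps were tested on simulated data. Alternatives used RLE scaling, other filters, DESeq2 1.42.0, limma 3.58.1 voom with sample quality weights, fewer groups and fewer libraries. Coordinates and lengths come from GENCODE vM21, which held 99.2% of the identifiers. Sequences come from RefSeq. The members are named in full, other pathway genes by up to 4 per list and comparison with the smallest adjusted p. Members and lists were chosen with earlier results of these data known.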

Additional observations from a re-analysis of the deposited data

Results flagged for a closer look

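In groups of 5, a library was singled out when its gap to the nearest other library was over 0.71 of the group's range. Of 60 groups (10 genes in 6 groups) 3 were singled out, and chance gives about 1 in 20, or 3. Abcb11 was 817 CPM in the first CRS+ACBP library, against 576 CPM in the next. Nr0b2 was 94.6 CPM in that library too, against 39.3 CPM in the next. Nr0b2 was 18.3 CPM in the fourth PBS library, against 38.5 CPM in the next lowest.

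The effect of CDDP on Nr1h4 was singled out because the test of its difference between the pumps passed with edgeR, at −0.22 under ACBP/DBI and −1.12 under PBS on the log2 scale, a difference of 0.90 (edgeR adjusted p = 0.0385). The call was lost without any 1 of 12 of the 20 libraries, with limma voom (0.53, adjusted p = 0.199), with no filter on low counts (adjusted p = 0.0579) and in a fit of the 4 groups alone (adjusted p = 0.0616).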

How the results depend on the processing

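No paired analysis was possible because the labels number the libraries without pairing them between groups. The fall of Cyp7a1 and Nr1h4 in CDDP against PBS passed in each of the alternatives and without each library (Cyp7a1 −2.47 to −1.84, Nr1h4 −1.30 to −1.02). The number of bile acid genes called there was 2, and 3 with limma voom, which added Cyp8b1 (2 to 3 without single libraries). This number moved in other comparisons too. In CRS against PBS it was 0, and 3 with limma voom or 1 in a fit of those groups alone. In CDDP+ACBP against CDDP it was 1, and 2 without the 8 libraries rich in muscle or brain transcripts, an alternative chosen after seeing the data; without single libraries it was 1 to 2. In CDDP against CRS it was 3, and 5 with limma voom (3 to 4 without single libraries). For the difference in CDDP effect between pumps it was 1, and 0 with no filter on low counts or in a fit of 4 groups (0 to 1 without single libraries); the 1 gene limma voom called there was Cyp8b1. For CRS averaged over both pumps it was 1, with 2 by DESeq2, 3 by limma voom, 3 in a fit of those groups alone and 0 without the 8 libraries (0 to 2 without single libraries).

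Cyp8b1 reversed in 3 comparisons. CDDP against PBS gave −3.49 with limma voom and −0.20 to 1.34 without single libraries. CDDP+ACBP against CDDP gave 4.25 with limma voom and −0.55 to 1.001 without single libraries, turning to 1.001 without the fifth CDDP library and 0.05 without the third CDDP+ACBP library. The difference in CDDP effect between pumps gave 3.23 with limma voom. The cause was not tested. Over all genes, CRS against PBS called 23 genes, and 82 with DESeq2, 930 with limma voom, 265 in a fit of those groups alone and 12 without the 8 libraries. For CRS averaged over both pumps the main fit called 112 genes, DESeq2 370 and limma voom 2027. A fit of those groups alone called 919 there, and 30 were called without the 8 libraries. Limma voom called 6384 genes in CDDP against PBS, where the main fit called 6756. In CDDP against CRS limma voom called 5154 genes and the main fit 5639. In CDDP+ACBP against CDDP the main fit called 5503 genes, and 4828 were called without the 8 libraries.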

Other observations

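Sult2a8, listed with the detoxification genes, averaged 443 ± 51.7 CPM in CRS+ACBP and 388 ± 58.2 CPM in CRS, against 300.2 ± 92.9 CPM in ACBP and 268 ± 38.9 CPM in PBS (SD, n = 5 each). CRS averaged over both pumps gave 0.55 ± 0.20 for it on the log2 scale (edgeR adjusted p = 0.186) and −1.46 ± 0.37 for Sult2a1, its relative in the same list (adjusted p = 0.0552), and neither passed the test.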
